A study of Zea mays with 6 samples.

Results

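The ramosa genes of maize (Zea mays) restrict branching of the ear and tassel, and 3 genes of that system are described here: ramosa1 (ra1, Zm00001d020430), ramosa2 (ra2, Zm00001d039694) and ramosa1 enhancer locus2 (rel2, Zm00001d024523). They were picked by their IDs from 46272 gene IDs, and all 3 were found in every library. The files list IDs only, so the pairing of these 3 IDs with gene names was given with the choice of genes and was not checked against sequence. Messenger RNA was sequenced from young ears of 2 to 3 mm in length, with 3 biological replicates of wild type (WT, the B73 inbred line) and 3 of ra3;tpp4 plants, which carry mutations in a pair of related genes. Plants of both genotypes were grown in the field at one site. The labels used here do not name the mutant alleles, the line in which they were carried or the number of ears in a replicate.

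In the immature ear, side branches stay short because their meristems form a set number of spikelets and stop, a property called determinacy. RA1 is a C2H2 zinc-finger transcription factor with repressor (EAR) motifs, RA2 is a LOB-domain transcription factor, and RA3 is a trehalose-6-phosphate phosphatase; loss of any of them makes the ear branch. Earlier genetic work in maize placed ra2 and ra3 upstream of ra1. REL2 is a co-repressor of the TOPLESS family that binds the repressor motifs of RA1 and takes part in many other repression complexes. TPP4 is another trehalose-6-phosphate phosphatase and acts redundantly with RA3. The comparison of ra3;tpp4 with WT therefore reads out these 3 regulatory genes where the phosphatases are mutated.

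The 3 genes behaved differently. In ra3;tpp4 ears ra1 was 4.73-fold lower than in WT and ra2 was 1.59-fold lower, while rel2 stood at 1.01 times its WT level. The falls of ra1 and ra2 passed the test and the difference in rel2 did not (quasi-likelihood test of edgeR, at an adjusted p under 0.05 by Benjamini-Hochberg over all 21127 tested IDs). Of the 3 genes 2 were thus called, both lower, where 1.47% of all tested IDs were called and 0.549% were called lower. The 3 genes were chosen with earlier results of these data known, so these shares are a background and not a test. For ra1 and ra2 the highest mutant library was below the lowest WT library, a pattern found in 9.49% of all tested IDs (CPM scaled by TMM, the trimmed mean of M-values). The median log2 change over all tested IDs was -0.00218. The RNA came from whole ears, so fewer cells that express a gene and less of its RNA in each cell cannot be told apart.

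**Figure D1:**
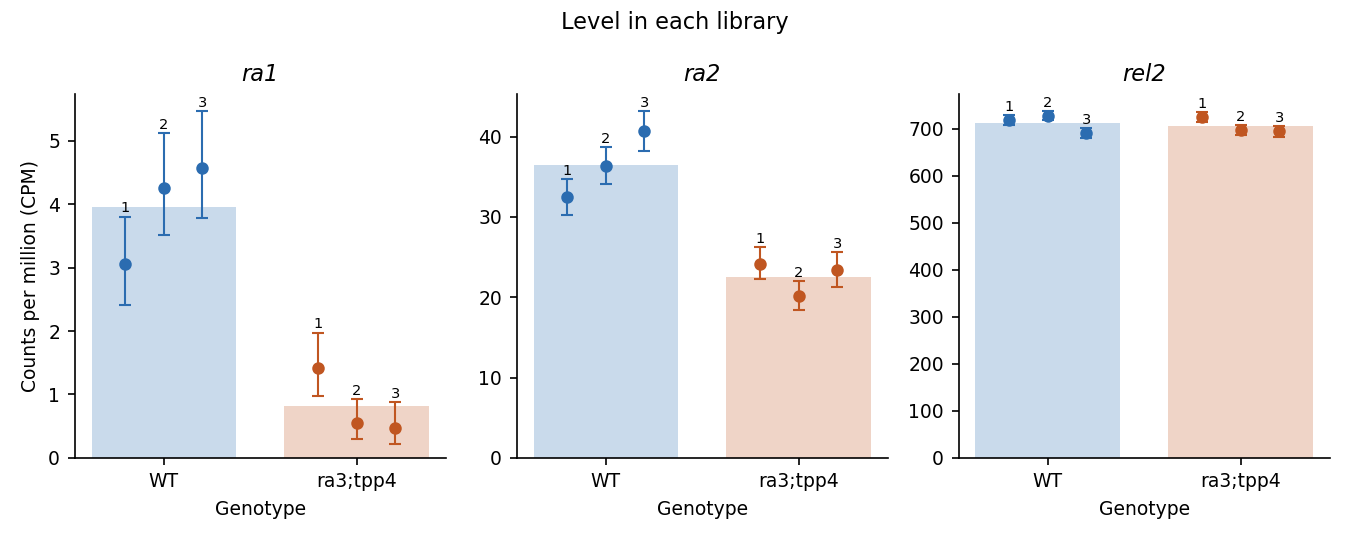
Level of ra1, ra2 and rel2 in CPM (vertical axes from 0) in each library, by genotype. Points are libraries with their replicate number, point bars are exact 95% Poisson intervals for counting error, and shaded bars are group means; for ra1 and ra2 the WT and ra3;tpp4 points do not overlap, and for rel2 all 6 lie between 691 and 727 CPM.

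Library totals over gene IDs ran from 25815984 to 26752609 counts in WT and from 19291332 to 25254164 in ra3;tpp4. Alignments that were not unique made up 19.3% to 22.2% of all records in WT and 11.05% to 15.3% in ra3;tpp4, and records assigned to gene IDs 65.5% to 68.9% and 75.3% to 77.7%. Both shares divided by genotype, and their part in the results was not tested. Markers of the ear or of other tissues, and the mutated ra3 and tpp4 themselves, were not paired with IDs in the sources used here, so the labels were not checked through them. The same holds for the other branching genes planned as a pathway list, of which 0 of 30 symbols could be tied to an ID of the files.

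ra1, the most downstream of the ramosa genes, was read from few counts. The WT libraries held 79, 114 and 118 counts in replicates 1, 2 and 3, which is 3.05, 4.26 and 4.57 CPM (the count scaled to a common library total over gene IDs). The ra3;tpp4 libraries held 34, 14 and 9 counts, which is 1.41, 0.554 and 0.466 CPM. Even the highest mutant library thus reached less than the lowest WT library. The mean fell from 3.96 ± 0.802 CPM to 0.811 ± 0.523 CPM (SD, n = 3 each), or to 20.5% of the WT mean.

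The log2 change of ra1 was -2.24 (SE 0.413, edgeR adjusted p = 0.0264), with a 95% interval of -3.16 to -1.33, that is 2.51-fold to 8.92-fold lower. Only 37 of the 21127 tested IDs had a more negative log2 change. Among the 1540 other tested IDs within 0.5 of ra1 in mean log2 CPM, 4 had a more negative change. Without single libraries the log2 change ran from -2.92 to -1.99, always lower in the mutant. The call was lost without WT replicate 1, 2 or 3 (edgeR adjusted p = 0.0547, 0.112 and 0.132) and without ra3;tpp4 replicate 3 (edgeR adjusted p = 0.0598). Without ra3;tpp4 replicate 1 the fall was 7.56-fold (edgeR adjusted p = 0.0111).

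The mutant libraries differed in ra1 by more than counting error. Replicate 1, at 1.41 CPM (exact Poisson interval 0.979 to 1.97), stood above replicate 2 (0.303 to 0.930) and replicate 3 (0.213 to 0.886), and its interval did not overlap theirs. These intervals leave out variation between ears. edgeR fitted a single spread for ra1 over both genotypes, drawn toward that of other IDs at its level, so that value does not judge this difference. Relative to the WT mean of values scaled by TMM (trimmed mean of M-values), ra3;tpp4 replicates 1, 2 and 3 held 36.4%, 14.0% and 12.1%. In WT the libraries were closer, at 76.1%, 109% and 115%. The coefficient of variation of CPM was 64.5% in ra3;tpp4 and 20.2% in WT, where counting error alone at the mean count gives 22.9% and 9.82%. In these mutant libraries the share of non-unique alignments stood in the same order as ra1, at 15.3%, 12.9% and 11.05%. In WT it did not, at 21.4%, 19.3% and 22.2% in replicates 1, 2 and 3, where ra1 was lowest in replicate 1. Of the mutant libraries, replicate 1 had the lowest share of records without an alignment, 1.57% against 5.39% and 4.62%. The part of these shares in the ra1 values was not tested.

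ra2, the LOB-domain gene, was lower by a smaller and steadier amount. WT replicates 1, 2 and 3 had 839, 971 and 1050 counts, or 32.4, 36.3 and 40.7 CPM. The ra3;tpp4 replicates had 582, 509 and 451 counts, or 24.2, 20.2 and 23.4 CPM. The genotypes did not overlap, with a gap from 24.2 to 32.4 CPM between them. The mean fell from 36.5 ± 4.13 CPM to 22.6 ± 2.13 CPM (SD, n = 3 each), or to 61.9% of the WT mean.

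The log2 change of ra2 was -0.67 (SE 0.115, edgeR adjusted p = 0.0220), with a 95% interval of -0.92 to -0.42, or 1.33-fold to 1.90-fold lower. Of 3898 other tested IDs within 0.5 of ra2 in mean log2 CPM, 22 had a more negative change. Over the fits that each left out 1 library the log2 change lay between -0.75 and -0.58. The call was lost without WT replicate 2 or 3 (edgeR adjusted p = 0.0844 and 0.105) and without ra3;tpp4 replicate 1 (edgeR adjusted p = 0.0572).

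rel2, the co-repressor gene, showed no difference that passed the test. WT replicates 1, 2 and 3 had 18570, 19461 and 17843 counts, or 718, 727 and 691 CPM. The ra3;tpp4 replicates had 17413, 17586 and 13395 counts, or 724, 696 and 694 CPM. The groups overlapped, and the lowest and the highest library were both WT. The WT mean was 712 ± 18.8 CPM and the mutant mean 705 ± 16.4 CPM (SD, n = 3 each).

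The log2 change of rel2 was 0.01 (SE 0.0625, edgeR adjusted p = 0.975). Its 95% interval ran from -0.13 to 0.15, that is from 0.914 to 1.11 times the WT level, so a change in rel2 of the size seen in ra1 or ra2 lies outside it. The sign of this small difference changed with the scaling and with the libraries used: it was -0.01 with library totals alone, as it was when WT replicate 3 or ra3;tpp4 replicate 1 was left out. Reads that fit both rel2 and a related co-repressor gene equally well would be missing from these counts, and how many there were was not tested.

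**Figure D2:**
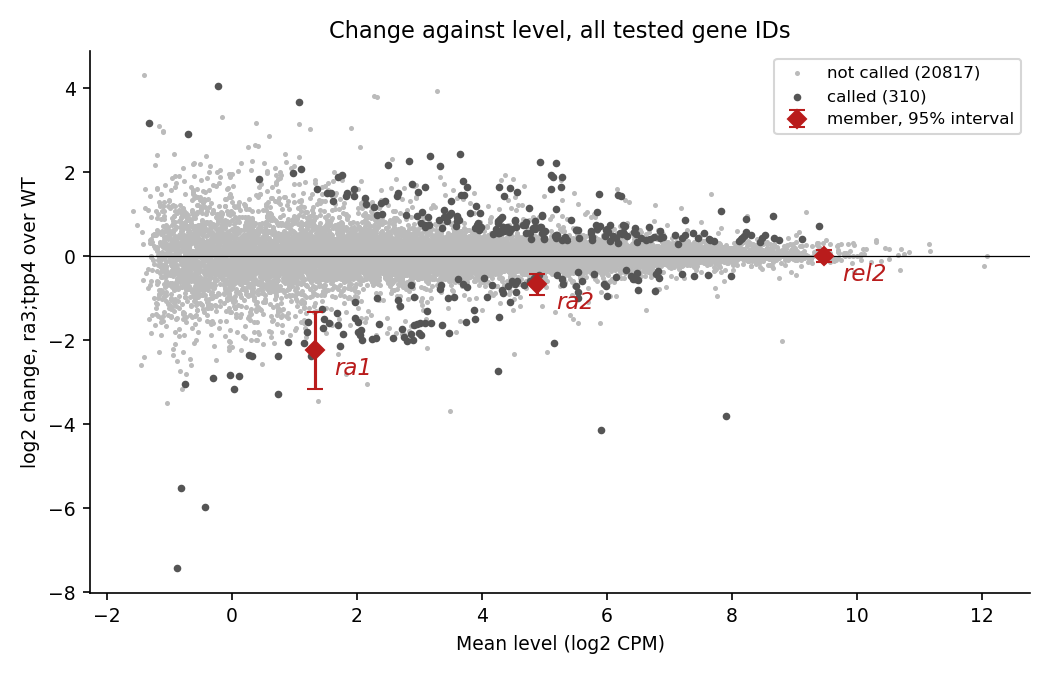
The log2 change (ra3;tpp4 over WT, vertical axis) against the mean level (log2 CPM, horizontal axis) for the 21127 tested gene IDs, with the 310 called IDs in dark grey and ra1, ra2 and rel2 as diamonds with 95% intervals. ra1 (-2.24) lies at the lower edge of IDs of its level, ra2 (-0.67) among the called lower IDs, and rel2 (0.01) on the zero line.

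The spread between replicates was smaller the more counts a gene had. The biological coefficient of variation that edgeR fitted was 31.9% for ra1, 10.6% for ra2 and 6.99% for rel2. The trend over all tested IDs at the same levels was 28.6%, 10.5% and 8.66%. edgeR draws each fitted value toward this trend and fits a single value for both genotypes. The closeness of these values therefore does not show that the spread of a gene was usual for its level. The ra1 fall carries the widest interval of the 3.

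Counts of one gene per counts of another in the same library do not depend on how libraries are scaled. Transcript lengths of the build used were not at hand, so these ratios compare genotypes and say nothing of which gene has the higher level. Against 1000 rel2 counts there were 4.25, 5.86 and 6.61 ra1 counts in WT replicates 1, 2 and 3 and 1.95, 0.796 and 0.672 in ra3;tpp4. Each mutant library thus held fewer ra1 counts for its rel2 counts than any WT library: the log2 ratio fell by 2.43 on average, from -7.51 ± 0.329 to -9.94 ± 0.827 (SD, n = 3 each), a 5.40-fold difference. The edgeR log2 changes of ra1 and rel2 differed by -2.25. The mean of log2 ratios gives each library equal weight, so this 5.40-fold and the 4.73-fold that edgeR gave for ra1 are unlike measures.

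For ra2 there were 45.2, 49.9 and 58.8 counts per 1000 rel2 counts in WT and 33.4, 28.9 and 33.7 in ra3;tpp4, and the groups did not overlap. This log2 ratio went from -4.29 ± 0.193 to -4.97 ± 0.123 (SD, n = 3 each), a 1.60-fold difference. ra1 also fell relative to ra2, from 0.0942, 0.117 and 0.112 ra1 counts per ra2 count in WT to 0.0584, 0.0275 and 0.0200 in ra3;tpp4. That is a 3.38-fold difference, again with no overlap between genotypes. The edgeR log2 changes of ra1 and ra2 differed by -1.57, where the mean log2 ratio differed by -1.76. For each of the 3 ratios the exact permutation test over libraries gave p = 0.1 (two-sided, n = 3 each, Benjamini-Hochberg adjusted p = 0.1 over the 3 ratios), the smallest value that 3 libraries against 3 allow. This test therefore cannot call an unequal change of 2 of these genes at 0.05.

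**Figure D3:**
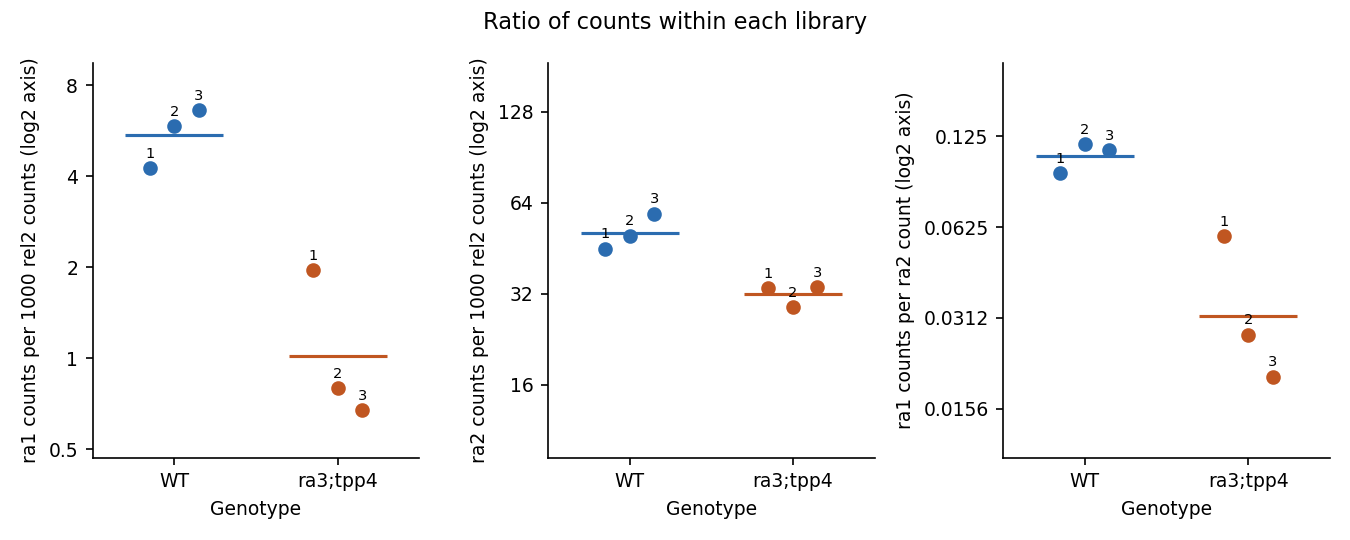
Ratios of counts within each library on log2 axes of equal span, by genotype: ra1 per 1000 rel2 counts, ra2 per 1000 rel2 counts and ra1 per ra2 count. Points are libraries with their replicate number and lines are geometric means; in each panel the 3 ra3;tpp4 points lie below the 3 WT points, by 5.40-fold, 1.60-fold and 3.38-fold on average.

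IDs numbered close to the 3 genes were looked at for falls of their own. Among the 50 tested Zm00001d IDs on either side of ra1 in number, edgeR called 0 of 100 lower and 3 higher, and their median log2 change was 0.00073. Around ra2, edgeR called 0 of 100 lower and 1 higher, with a median log2 change of -0.03, and around rel2 0 of 100 lower, with a median of -0.03. At an unadjusted edgeR p under 0.05, 7, 12 and 5 of these IDs were lower around ra1, ra2 and rel2, where 6.02% of all tested IDs were. At that threshold 10, 6 and 7 were higher. DESeq2 called 2, 2 and 1 lower, against 1.65% of all tested IDs, and limma-voom 0 in each, against 0.644%. DESeq2 called 5, 1 and 0 higher, and limma-voom 3, 1 and 0. Shares higher over all tested IDs were not counted for the unadjusted p, DESeq2 or limma-voom. The edgeR counts stand beside 0.549% called lower and 0.918% called higher over all tested IDs. No source used here says whether IDs close in number are close in the genome. ra1 and ra3 are known to lie on the same chromosome.

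The ID most like each gene over the 6 libraries was sought by the root mean square difference of log2 CPM, each centred on its own mean, among IDs whose mean log2 CPM was 1 or more. For ra1 it was ENSRNA049478999, an ID with the prefix that Ensembl gives to non-coding RNA genes, at a difference of 0.242 log2 units, where the median over 18326 IDs was 1.25. Its WT libraries had 8.66, 8.75 and 10.6 CPM and its mutant libraries 3.49, 2.099 and 1.45 CPM. The log2 change of that ID was -1.95 (SE 0.278). These values are a description, since the ID was picked for its likeness to ra1. Many IDs with this prefix were lower in ra3;tpp4: edgeR called 29 of the 220 tested lower, or 13.2%, against 0.549% of all tested IDs. The median log2 change of the 220 was -0.44. The called IDs all lay in the number range ENSRNA049477405 to ENSRNA049479895, which holds ENSRNA049478999. Not every tested ID in that range was called, and none with a lower number was. The share is thus not a trait of the whole prefix. Whether the fall of ra1 is tied to the fall of those called IDs was not tested.

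For ra2 the closest ID was Zm00001d051636, at a difference of 0.0703 log2 units where the median over 18325 IDs was 0.381. It went from 104 ± 7.49 to 70.6 ± 8.65 TMM-scaled CPM (SD, n = 3 each), a log2 change of -0.55 (SE 0.0962), again a description of an ID picked for its likeness. The number of IDs within 0.25 log2 units of ra2 was 699. That limit is wide beside the ra2 log2 change of -0.67, so IDs with a smaller fall can lie within it. The number therefore does not show how common a fall like that of ra2 was. For ra1 that number was 1, but ra1 itself lay under the cutoff on mean log2 CPM. IDs under that cutoff were not searched, and few counts add scatter to the ra1 profile. Its number therefore does not show that the ra1 profile was rare. For rel2 that number was 14985, as most IDs of this series, like rel2, hardly varied between libraries.

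The choice of tool, scaling and filter moved the log2 changes of ra1, ra2 and rel2 little. The adjusted p of ra1 and ra2 moved more with the tool and the filter. DESeq2 gave a log2 change of -2.25 for ra1 (DESeq2 adjusted p = 2.51e-05) and -0.67 for ra2 (DESeq2 adjusted p = 7.95e-05). With limma-voom the values were -2.36 (limma adjusted p = 0.0321) and -0.67 (limma adjusted p = 0.0273). Among all settings in the plot of log2 changes by setting, the widest shift of ra1 came when ra3;tpp4 replicate 1 was left out (-2.92), and the widest of ra2 when ra3;tpp4 replicate 2 was left out (-0.58).

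**Figure D4:**
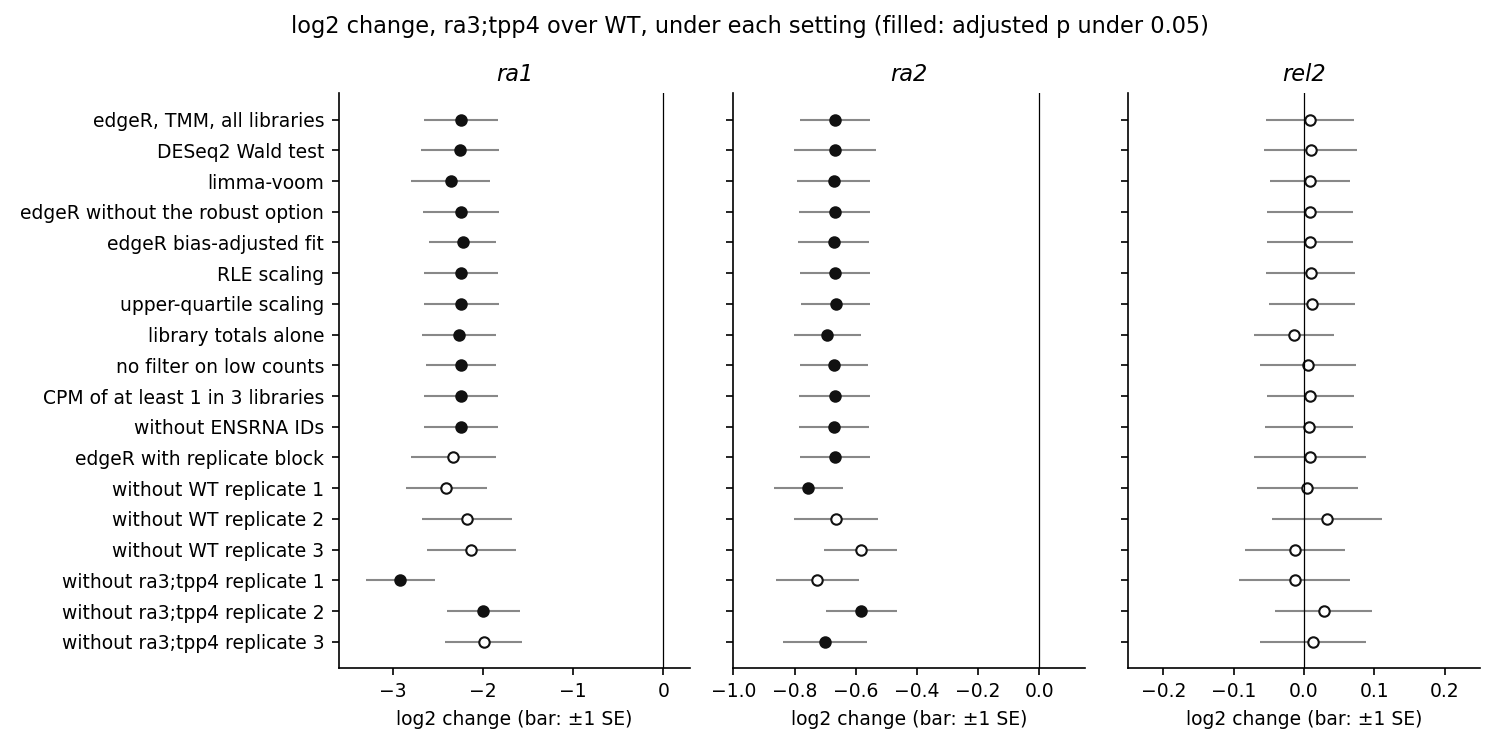
The log2 change (ra3;tpp4 over WT, horizontal axes, bars ±1 SE) of ra1, ra2 and rel2 under each of 18 settings (vertical axis), with filled points where the adjusted p was under 0.05; the horizontal scales differ. ra1 stays between -2.92 and -1.99 and ra2 between -0.75 and -0.58, with open points mainly where a library is left out, while rel2 stays between -0.01 and 0.03 and is never called.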

How the data were processed

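The authors deposited unnormalized counts for each gene ID, with 1 table for each of 6 libraries. Per the submitters' processing notes, the authors used Trimmomatic 0.36, HISAT2 2.1.0 and HTSeq with the B73 RefGen_v4 build; no source used here gives the annotation release, strand setting or parameters, so antisense or overlapping reads cannot be told apart. The 5 summary lines of HTSeq stayed out of library sizes (65.5% to 77.7% of records were assigned to IDs). Here, IDs were filtered with filterByExpr, scaled by TMM and tested with edgeR 4.0.16 (robust quasi-likelihood F test, R 4.3.3) with genotype as the only term. CPM are counts divided by the library total over gene IDs in the usual CPM unit, unscaled unless TMM is named. Values of log2 CPM are scaled by TMM, with a small prior count added. Standard errors come from the log2 change and its F statistic. Alternatives used DESeq2 1.42.0, limma-voom (limma 3.58.1), other scalings and filters, and a replicate block. Scripts were tested on simulated data with a single spread for all IDs. That spread was narrower than the value fitted for ra1, so the test does not cover a gene as variable as ra1. The named genes are the 3 members plus the nearest profile of each. Members and lists were chosen with earlier results of these data known. The RefSeq table (Zm-B73-REFERENCE-NAM-5.0) matched 0 of 44146 Zm00001d IDs, so the lists by symbol and sequences were not used. Poisson intervals (95%) cover counting error only.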

Additional observations from a re-analysis of the deposited data

How the results depend on the processing

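ra1 and ra2 were lower in ra3;tpp4 in all 17 alternatives, and rel2 was called in 0 of 17. ra1 was called in 12 (log2 change -2.92 to -1.99, adjusted p 2.51e-05 to 0.132) and ra2 in 14 (-0.75 to -0.58, adjusted p 7.95e-05 to 0.105). Leaving out single libraries spanned those same ranges of log2 change, though not of adjusted p, and gave -0.0133 to 0.0332 for rel2. Fewer libraries enter those fits. With the replicate number as a block ra1 had a log2 change of -2.33 (edgeR adjusted p = 0.0613) and ra2 kept its call. Deviations from the group means had correlations of -0.181, -0.123 and 0.154 between libraries of equal number. Correlations between libraries of unlike number were not set beside them, so these values do not decide whether the numbers pair libraries. rel2 turned to -0.0147 with library totals alone, -0.0125 when WT replicate 3 was left out and -0.0133 when ra3;tpp4 replicate 1 was. The 310 calls over all IDs became 846 in DESeq2, 511 with no filter on low counts and 58 to 471 with single libraries left out; the cause was not tested. Among the 3 ratios all 9 alternatives kept the direction, with log2 differences of -2.91 to -2.14 for ra1 to rel2, -0.76 to -0.57 for ra2 to rel2 and -2.20 to -1.42 for ra1 to ra2. With 9 to 118 counts per library, depth limits ra1 far more than ra2 or rel2.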
